A study of Homo sapiens with 8 samples.

Results

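Laminins are the large heterotrimeric glycoproteins of the basement membrane, and each trimer joins an α, a β and a γ chain encoded by separate genes. The rule named 9 chain genes and asked for rows annotated with exactly 1 gene symbol. Of these 9 chains, 6 had such a row (LAMA1, LAMA2, LAMA4, LAMB1, LAMB2 and LAMC1), among 33616 genes with such a row in the whole table. LAMA5 and LAMB3 occurred only on rows that carry a second symbol, and LAMA3 was on no annotated row, so these 3 chains were not analysed here. LAMA2 had 2 rows, of which the row with the higher mean over the 8 samples was used.

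Total RNA of the human glioblastoma line LN229, an established cell line, was measured on expression arrays, with 4 samples titled 23 Pa CSS and 4 samples titled no CSS. CSS is compressive solid stress, applied for 18 h by steel discs resting on an agar layer above cells that grew on the porous membrane of a culture insert. Wells without CSS carried neither agar nor discs, so the comparison covers both together, and all samples were from this 1 cell line. The source name and description of each sample state the opposite condition to its title. Groups here follow the titles, and each difference takes the mean titled no CSS from the mean titled 23 Pa CSS. If the other labels are right, all signs turn.

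In tissue, laminins bind integrins and dystroglycan on the cell surface, and networks of laminin and type IV collagen are linked by nidogen and perlecan. LAMA4 encodes the α4 chain, a short α chain found in vascular basement membranes and also made by glioma cells. LAMB1 and LAMC1 encode the β1 and γ1 chains, which α4 and several other α chains share as partners.

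The promoters of these 3 chains are shown because they are the chains measured above background, and 1 of them changed. Each is a RefSeq window (GRCh38.p14) of 250 bases before and 50 bases after the annotated start, read 5′ to 3′ on the gene's strand. The LAMA4 window lies at chr6:112254518-112254817 on the minus strand, the LAMB1 window at chr7:108003112-108003411 on the minus strand and the LAMC1 window at chr1:183023170-183023469 on the plus strand. Capitals mark matches, on either strand, to any of the 7 motifs named in the next paragraph.
LAMA4: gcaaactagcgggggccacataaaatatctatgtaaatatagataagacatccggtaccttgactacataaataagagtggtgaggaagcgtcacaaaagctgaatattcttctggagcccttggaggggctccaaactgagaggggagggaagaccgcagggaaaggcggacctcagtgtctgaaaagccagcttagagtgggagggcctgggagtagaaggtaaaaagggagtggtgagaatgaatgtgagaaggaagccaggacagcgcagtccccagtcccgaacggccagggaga
LAMB1: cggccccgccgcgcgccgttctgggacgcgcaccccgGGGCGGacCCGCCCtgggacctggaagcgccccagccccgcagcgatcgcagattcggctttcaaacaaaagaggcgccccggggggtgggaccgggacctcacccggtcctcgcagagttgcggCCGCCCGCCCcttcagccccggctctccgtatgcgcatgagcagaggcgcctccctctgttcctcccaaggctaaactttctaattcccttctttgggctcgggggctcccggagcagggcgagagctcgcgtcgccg
LAMC1: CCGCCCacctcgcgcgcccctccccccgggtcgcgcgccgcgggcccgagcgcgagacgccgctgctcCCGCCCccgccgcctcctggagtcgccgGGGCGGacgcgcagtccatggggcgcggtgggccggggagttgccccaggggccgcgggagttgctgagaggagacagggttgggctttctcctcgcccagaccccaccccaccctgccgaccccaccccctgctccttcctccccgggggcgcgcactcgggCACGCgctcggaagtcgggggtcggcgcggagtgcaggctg

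The LAMA4 window held 51.3% G and C with 8 CG dinucleotides, against 71% with 35 in LAMB1 and 79% with 41 in LAMC1. The median of the 35116 promoters of this length in the table was 58.7%, with 14 CG dinucleotides. The GC box GGGCGG, bound by SP family factors, occurred 0 times in LAMA4, 4 times in LAMB1 (where 2 of the matches overlap) and 3 times in LAMC1. It occurred in 45% of all those promoters. The hypoxia core GCGTG (36.5% of promoters) matched once in LAMC1. The other hypoxia core ACGTG (21.4%), the TATA box TATAAA (11.5%), the AP-1 site TGANTCA (7.71%), the TEAD site GGAATG (14%) and the CArG box (1.29%) matched none of the 3 windows. No match says only that these letters are absent from the window. A promoter was also listed for LAMA2 and LAMB2, and none for LAMA1. The LAMA2 window held 55.3% G and C with 10 CG dinucleotides and 0 GC boxes. The LAMB2 window held 58.7% with 15 CG dinucleotides and 1 GC box. A window without the GC box was thus not particular to LAMA4.

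The deposited values were log2 signals per transcript cluster, with array medians of 4.59 to 4.65 in the samples titled 23 Pa CSS and 4.56 to 4.62 in those titled no CSS. Background was taken per array as the 95th percentile of 23 antigenomic control rows, probes that match no human sequence, and lay between 7.78 and 8.61. A gene counted as above background where it exceeded this level on all 4 arrays of at least 1 group. Hybridisation controls, which are spiked onto every array, were higher in the samples titled 23 Pa CSS (10.39 to 10.66) than in those titled no CSS (9.97 to 10.38). Replicate 4 titled no CSS had the lowest hybridisation mean (9.97) and the lowest antigenomic mean, at 3.85, against 4.04 to 4.12 in the other 3 samples of its group. Of 9 markers of glioma cells 6 were above background (VIM, NES, S100B, SOX2, EGFR and CD44), whereas GFAP, CHI3L1 and OLIG2 were not. Of 8 endothelial markers 0 were above background, and their summed signal was 7.60 to 7.94 titled 23 Pa CSS and 7.55 to 7.72 titled no CSS on the log2 scale.

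LAMA4 was lower in the samples titled 23 Pa CSS, and it was the only 1 of the 6 measured chains to pass the test. Its log2 signal was 13.04, 13.12, 13.74 and 13.43 in replicates 1 to 4 titled 23 Pa CSS, against 14.29, 14.41, 14.84 and 14.08 in replicates 1 to 4 titled no CSS. The groups did not overlap: the highest sample titled 23 Pa CSS lay 0.34 below the lowest titled no CSS. The mean was 13.33 ± 0.318 titled 23 Pa CSS and 14.40 ± 0.321 titled no CSS (SD, n = 4 each). The difference was −1.07 (SE 0.218, 95% interval −1.55 to −0.59), and limma gave an adjusted p of 0.0341 over all 135750 transcript clusters. The signal titled 23 Pa CSS was thus 0.476 times that titled no CSS, with an interval of 0.342 to 0.663. Of all genes 0.97% passed in this direction, and of the genes above background 2.94%, against 1 of the 3 chains above background. The chains were chosen with earlier results of these data known, so this 1 of 3 is a description and no measure of enrichment. Of the 326 genes that passed in this direction, 255 differed by more than LAMA4. In such bulk RNA fewer cells that make a transcript and less of it per cell cannot be told apart.

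**Figure D1:**
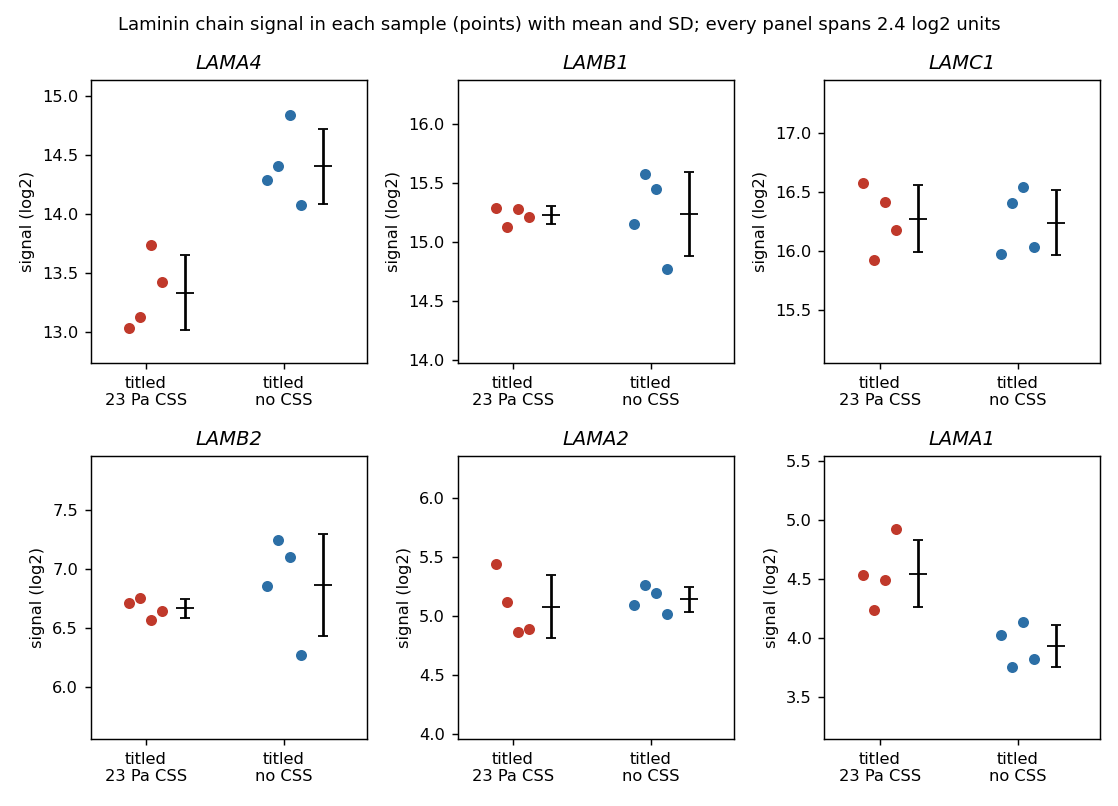
Log2 signal of the 6 measured laminin chains in each sample, with the mean and SD (bars) of the 4 samples titled 23 Pa CSS (left) and the 4 titled no CSS (right). The LAMA4 groups are apart (13.04 to 13.74 titled 23 Pa CSS and 14.08 to 14.84 titled no CSS), those of LAMA1 are apart in the other direction, and those of the other chains overlap.

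The LAMA4 call was lost in most fits with a sample left out, although its difference changed little. Leaving out 1 sample at a time kept the difference between −1.21 and −0.93, but the adjusted p (limma) rose to between 0.0648 and 0.0963 in 7 of the 8 fits. The call held only without replicate 3 titled 23 Pa CSS, the sample of that group with the most LAMA4 (adjusted p = 0.0151). Over all rows that fit called 1283 higher and 4077 lower, against 789 and 1938 with all samples. The 7 fits that lost LAMA4 called 145 to 439 rows higher and 266 to 870 lower. Without replicate 4 titled no CSS, the array with the lowest hybridisation and antigenomic means, the difference was −1.18 (limma adjusted p = 0.0648). Among all 784 genes that passed, 87.5% lost their call in at least 1 of the 8 fits, a looser measure than the 7 lost by LAMA4. The adjusted p was 0.0487 where the replicate number entered as a block. After each array was centred on its hybridisation controls the difference was −1.38 (adjusted p = 0.00684), where the median of all genes was −0.22.

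**Figure D2:**
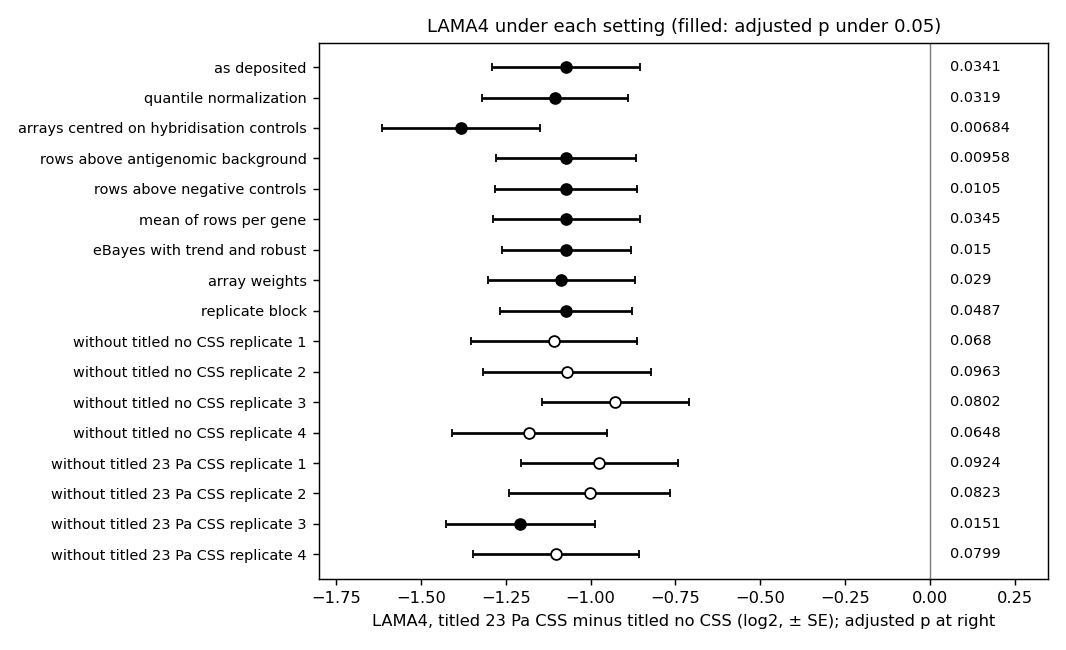
Difference of LAMA4 between the samples titled 23 Pa CSS and those titled no CSS (log2, point and SE) as deposited, under 8 other settings and without each sample in turn, with the limma adjusted p at the right. Every point lies between −1.38 and −0.93, and the open points, all of them fits with a sample left out, did not pass 0.05.

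LAMB1, the β1 chain, had nearly the same mean in both groups as deposited. Its signal was 15.29, 15.12, 15.28 and 15.21 titled 23 Pa CSS, against 15.15, 15.57, 15.45 and 14.77 titled no CSS. The samples titled 23 Pa CSS all lay inside the range of those titled no CSS, with an SD of 0.0773 titled 23 Pa CSS and 0.356 titled no CSS. The difference was −0.01 (95% interval −0.44 to 0.42, limma adjusted p = 0.986), an interval that allows a change of 0.736 to 1.33 times. After centring on the hybridisation controls it was −0.32 (SE 0.210, limma adjusted p = 0.359). LAMC1, the γ1 chain, had 16.58, 15.93, 16.41 and 16.17 titled 23 Pa CSS, against 15.98, 16.41, 16.54 and 16.03 titled no CSS. These groups overlapped as well, and the difference was 0.03 (95% interval −0.41 to 0.48, limma adjusted p = 0.965), or 0.751 to 1.39 times. Its sign turned to −0.03 under quantile normalization, −0.28 after centring on the hybridisation controls and −0.00016 with array weights.

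**Figure D3:**
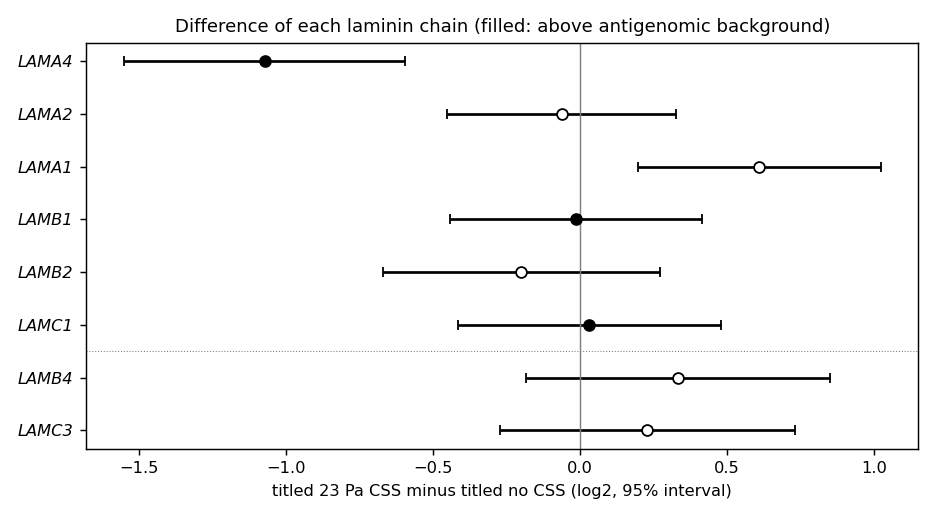
Log2 difference of each laminin chain (mean titled 23 Pa CSS minus mean titled no CSS) with its 95% interval from limma. The intervals of LAMA4 (−1.55 to −0.59) and LAMA1 (0.20 to 1.02) leave out 0, filled points mark chains above antigenomic background, and the 2 chains below the dotted line were not among the 9 named.

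Chains were also compared on the same array, which removes any scaling between arrays. Probes differ in brightness, so only the change of such a difference between groups can be read, and it was not tested. LAMA4 minus LAMC1 was −3.54, −2.80, −2.68 and −2.75 titled 23 Pa CSS, against −1.69, −2.00, −1.70 and −1.96 titled no CSS. Every sample titled 23 Pa CSS lay below every sample titled no CSS, with means of −2.94 ± 0.400 titled 23 Pa CSS and −1.84 ± 0.164 titled no CSS (SD, n = 4 each). LAMA4 minus LAMB1 averaged −1.89 ± 0.301 titled 23 Pa CSS and −0.83 ± 0.243 titled no CSS, again without overlap. LAMB1 minus LAMC1, the β1 and γ1 chains that share a trimer, averaged −1.05 ± 0.209 titled 23 Pa CSS and −1.003 ± 0.210 titled no CSS, and the groups overlapped. Relative to either partner chain LAMA4 was therefore lower, with a difference of −1.10 (LAMC1) and −1.06 (LAMB1) on the log2 scale.

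**Figure D4:**
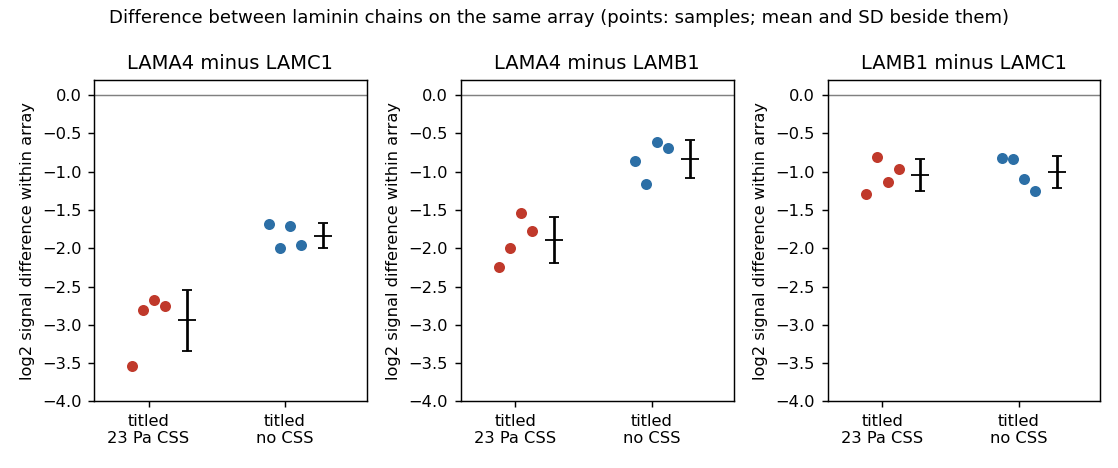
Log2 signal of a chain minus that of another on the same array, for each sample, with the mean and SD of each group of 4. LAMA4 relative to LAMC1 and to LAMB1 is lower in every sample titled 23 Pa CSS than in any titled no CSS, whereas LAMB1 relative to LAMC1 overlaps.

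The other 3 measured chains were not above background on any of the 8 arrays, so their log2 differences are printed but not read as fold changes. LAMA1 encodes the α1 chain of the early embryonic basement membrane. Its signal was 4.53, 4.23, 4.49 and 4.92 titled 23 Pa CSS, against 4.02, 3.75, 4.13 and 3.82 titled no CSS. These groups did not overlap, which held in the same direction for 9.1% of all genes, and in the direction of LAMA4 for 4.6%. The difference of LAMA1 was 0.61 (95% interval 0.20 to 1.02) and did not pass (limma adjusted p = 0.128). After centring on the hybridisation controls it was 0.30 (SE 0.194, limma adjusted p = 0.359). The antigenomic mean was itself higher, at 4.18 ± 0.0528 titled 23 Pa CSS and 4.03 ± 0.126 titled no CSS (SD, n = 4 each), and its part in the LAMA1 difference was not tested.

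LAMA2, the α2 chain of muscle and peripheral nerve, had 5.45, 5.12, 4.87 and 4.90 titled 23 Pa CSS, against 5.10, 5.26, 5.20 and 5.02 titled no CSS. The difference was −0.06 (95% interval −0.45 to 0.33, limma adjusted p = 0.915). After centring on the hybridisation controls it was −0.37 (limma adjusted p = 0.298). The second LAMA2 row differed by 0.03 as deposited (limma adjusted p = 0.972). LAMB2, the β2 chain of the kidney filter and the neuromuscular junction, had 6.71, 6.75, 6.57 and 6.64 titled 23 Pa CSS, against 6.86, 7.25, 7.10 and 6.27 titled no CSS. The samples titled 23 Pa CSS lay within the wider range of the others, and the difference was −0.20 (95% interval −0.67 to 0.27, limma adjusted p = 0.723), or −0.51 after that centring (adjusted p = 0.181). Replicate 4 titled no CSS had the lowest LAMB1, LAMB2 and LAMA4 signal of its group. Over the 6 chains 1 fell, 0 rose and 5 did not pass, and the median difference was −0.04, against 0.09 over all genes.

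Of the chains outside the 9 named, LAMB4 and LAMC3 had a row with 1 symbol and neither was above background. LAMB4, which follows LAMB1 on chromosome 7 in the RefSeq table, averaged 6.01 ± 0.477 titled 23 Pa CSS and 5.67 ± 0.190 titled no CSS (SD, n = 4 each, limma adjusted p = 0.550). LAMC3 averaged 4.66 ± 0.390 titled 23 Pa CSS and 4.43 ± 0.294 titled no CSS (SD, n = 4 each, limma adjusted p = 0.697).

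Among 33616 genes, the 3 whose pattern over the 8 samples was most like that of LAMA4 were ZNF37BP, LINC00630 and TMEM161B. Likeness was the root mean square difference between log2 signals after each gene was centred on its own mean, and it was 0.137, 0.172 and 0.172. ZNF37BP, a zinc finger pseudogene, differed by −1.27 (limma adjusted p = 0.0253). LINC00630, a long non-coding RNA, differed by −0.95 (adjusted p = 0.0862), and TMEM161B, which encodes a membrane protein, by −0.84 (adjusted p = 0.0603). These genes were picked for their likeness, so their differences are a description.

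Of the laminin receptors, 1 of 12 measured genes rose, 0 fell and 11 did not pass, with a median difference of 0.14. The receptor genes ITGA1, DAG1 and RPSA were not analysed here, because none had a row with exactly 1 symbol. Of all genes 1.36% passed in the upward direction and 2.33% in either, and their median difference was 0.09. The gene that rose was ITGA3, the integrin α3 subunit, which with β1 binds laminins that contain α3 or α5. Its signal was 15.75, 14.99, 15.39 and 15.46 titled 23 Pa CSS, against 14.55, 14.16, 14.20 and 13.57 titled no CSS. The groups did not overlap, which held in this direction for 9.1% of all genes. The difference was 1.28 (limma adjusted p = 0.0245). This call was lost in 5 of the 8 fits with a sample left out, where the adjusted p reached 0.0749. The other integrin chains of laminin receptors, named after their values were seen, included ITGA6 (13.90 titled 23 Pa CSS and 13.88 titled no CSS, limma adjusted p = 0.981) and ITGB1 (17.49 titled 23 Pa CSS and 17.43 titled no CSS, adjusted p = 0.924). ITGA2 averaged 8.39 titled 23 Pa CSS and 8.80 titled no CSS (limma adjusted p = 0.519). ITGB4 differed by 0.28 (adjusted p = 0.495) and ITGA7 by 0.07 (adjusted p = 0.887), both below background. CD151, the tetraspanin that associates with α3β1, averaged 14.31 ± 0.139 titled 23 Pa CSS and 13.80 ± 0.210 titled no CSS (SD, n = 4 each). Its difference of 0.51 had an adjusted p of 0.157 in the limma fit over all rows, and of 0.0272 among rows above antigenomic background. That filtered fit called 2005 of 14140 rows higher, against 789 of 135750 in the fit over all rows. CD151 too was named after its values were seen.

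Of 17 basement membrane partners 0 passed the limma threshold, and 5 had an unadjusted p under 0.05, a cut that 19.3% of all genes passed. The median difference was 0.24, against 0.09 over all genes. COL4A5, a type IV collagen chain, had 5.41, 4.92, 5.91 and 6.10 titled 23 Pa CSS, against 6.77, 6.66, 6.33 and 6.60 titled no CSS. It was below background throughout, and its groups did not overlap, which held in this direction for 4.6% of all genes. Its difference was −1.01 (limma adjusted p = 0.066). After centring on the hybridisation controls it passed, with a difference of −1.32 (adjusted p = 0.0112). AGRN, the heparan sulfate proteoglycan that binds the laminin coiled coil, averaged 7.60 ± 0.301 titled 23 Pa CSS and 6.92 ± 0.388 titled no CSS (SD, n = 4 each, limma adjusted p = 0.161). AGRN too was not above antigenomic background on any array. NID1, the nidogen that docks on the γ1 chain, was named after its values were seen and averaged 17.04 ± 0.204 titled 23 Pa CSS and 16.97 ± 0.279 titled no CSS (SD, n = 4 each, limma adjusted p = 0.915).

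Of 13 genes that cut laminin or fold and assemble secreted matrix proteins, 1 rose, 0 fell and 12 did not pass, with a median of 0.31. Over all genes 1.36% passed in the upward direction and 2.33% in either, and the median difference was 0.09. MMP14, a membrane protease that can cleave laminin, had 11.20, 10.93, 11.19 and 11.01 titled 23 Pa CSS, against 10.34, 10.17, 10.30 and 9.87 titled no CSS. The groups did not overlap, which held in this direction for 9.1% of all genes. The difference was 0.91 (limma adjusted p = 0.0257). That call was lost after centring on the hybridisation controls, with the replicate block and in 5 of the 8 fits with a sample left out (adjusted p up to 0.0797). BMP1, a protease that trims laminin chains and procollagens, was named after its values were seen and differed by 1.03 (limma adjusted p = 0.0703).

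Of 8 measured genes that build the laminin-binding glycan of dystroglycan 0 passed the limma threshold and 2 had an unadjusted p under 0.05 (19.3% of all genes did), with a median of 0.25. The 2 were the glucuronyltransferase B4GAT1 (0.55, adjusted p = 0.265) and POMGNT2 (0.51, adjusted p = 0.278), which acts on the same O-mannosyl glycan. POMGNT2 was not above background on any array. Of 6 paralogues with laminin-type domains 0 passed the limma threshold and 2 had an unadjusted p under 0.05 (the same 19.3% of all genes), with a median of 0.19. These were the netrins NTN1 (0.55, adjusted p = 0.190) and NTN4 (0.52, adjusted p = 0.252). Of the 6 paralogues 0 were above background, so their differences, like that of POMGNT2, are not read as fold changes. The median difference over all genes was 0.09. NTN4 can bind laminin γ1.

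**Figure D5:**
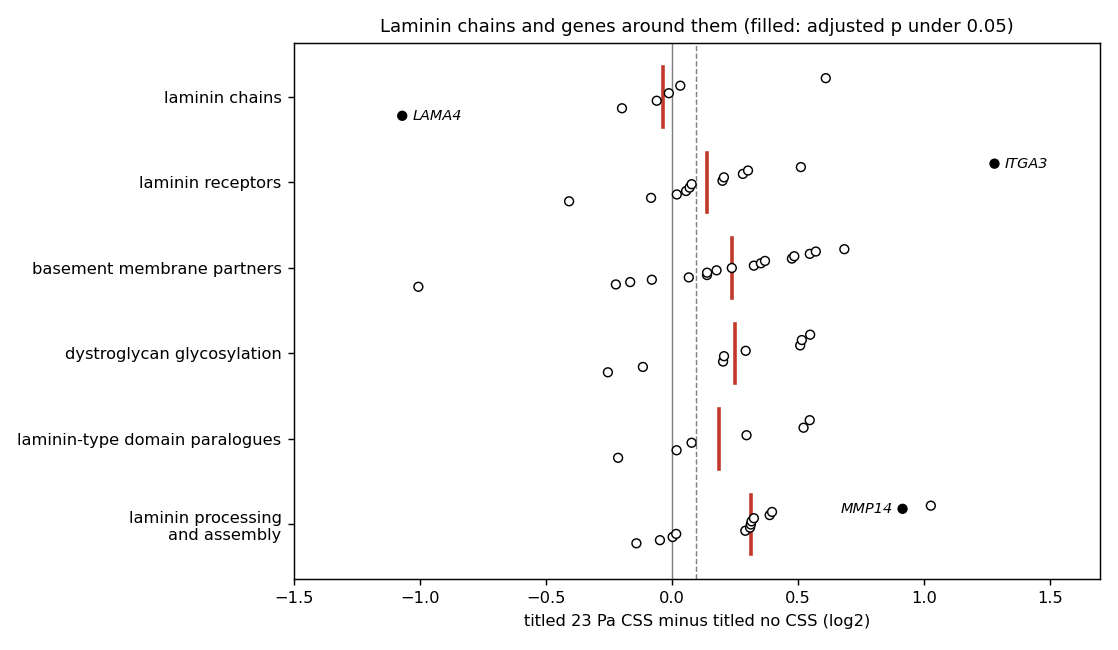
Log2 difference of each measured gene (mean titled 23 Pa CSS minus mean titled no CSS) for the 6 laminin chains and 5 lists of genes around them. Filled points passed an adjusted p of 0.05 in limma (LAMA4, ITGA3 and MMP14), red bars are list medians and the dashed line is the median of all genes (0.09).

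Markers of other cell types were checked because several make laminin. Of 7 immune markers 1 was above background, CD68, a lysosomal glycoprotein, which was higher (12.7 titled 23 Pa CSS and 11.2 titled no CSS, limma adjusted p = 0.013), while PTPRC was not above background. The summed immune signal, carried by CD68, was 12.22 to 13.27 titled 23 Pa CSS and 11.22 to 11.49 titled no CSS, and its part in the LAMA4 difference was not tested. Above background were 1 of 7 pericyte and smooth muscle markers (ACTA2), 3 of 5 fibroblast markers (COL1A1, LUM and PDGFRA), 2 of 8 epithelial markers (KRT8 and KRT18), 2 of 4 oligodendrocyte and Schwann cell markers (SOX10 and PMP2) and 2 of 6 neuronal markers (SYT1 and GAD1). None of these markers passed the limma threshold in either direction, but some differed without overlap of the groups. Of all genes 9.1% were higher and 4.6% lower without overlap. KRT18, a keratin, was higher (12.2 titled 23 Pa CSS and 11.3 titled no CSS, limma adjusted p = 0.084). PDGFRA was lower, with a difference of −0.52 (limma adjusted p = 0.245). PMP2, a myelin protein, averaged 9.09 ± 1.00 titled 23 Pa CSS and 10.80 ± 0.222 titled no CSS (SD, n = 4 each), a difference of −1.71 (limma adjusted p = 0.0548). SYT1, a synaptic vesicle protein, averaged 9.25 ± 0.733 titled 23 Pa CSS and 10.34 ± 0.176 titled no CSS (SD, n = 4 each), a difference of −1.09 (limma adjusted p = 0.0995).

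PMP2, SYT1 and PDGFRA were lower in the same samples as LAMA4, and KRT18 was higher there. All of them were named after their values were seen. On the list of PMP2, SOX10 differed by 0.34 (limma adjusted p = 0.374), and on that of SYT1, GAD1 differed by −0.13 (adjusted p = 0.875). The summed signal of the neuronal list was lower, at 9.93 to 10.68 titled 23 Pa CSS and 10.77 to 11.23 titled no CSS on the log2 scale, although RBFOX3, SNAP25, STMN2 and SLC17A7 were not above background. The summed epithelial signal was higher (12.14 to 12.74 titled 23 Pa CSS and 11.14 to 12.05 titled no CSS), with EPCAM and CDH1 not above background. This sum was carried by KRT18, whereas KRT8 differed by −0.21 (limma adjusted p = 0.637). The summed glioma signal was higher as well (17.33 to 17.56 titled 23 Pa CSS and 17.05 to 17.30 titled no CSS). That sum was carried mostly by VIM (16.9 titled 23 Pa CSS and 16.6 titled no CSS, limma adjusted p = 0.434). The sums overlapped for the oligodendrocyte and Schwann cell list (13.56 to 13.85 titled 23 Pa CSS and 13.29 to 13.68 titled no CSS), where MBP and MOG were not above background. They overlapped too for fibroblast markers (11.79 to 12.05 titled 23 Pa CSS and 12.01 to 12.23 titled no CSS) and for pericyte and smooth muscle markers (9.97 to 10.20 titled 23 Pa CSS and 9.74 to 10.46 titled no CSS). The part of these markers in the LAMA4 difference was not tested.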

How the data were processed

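RNA of 8 samples was measured on arrays that the series text names Human Transcriptome Array 2.0. The row identifiers matched, and genes were named from, the annotation of another array of the same maker, so every gene name rests on that annotation. The deposited table holds log2 signal per row, made by the authors with Transcriptome Analysis Console per the submitters' processing notes; summarisation, normalization and genome build are not given in the sources used here. Of 138745 rows, 2995 were controls, and the other 135750, each a transcript cluster, entered the fit unfiltered. Exactly 1 gene symbol was given for 36176, several for 1119 and none for 98455; symbols were updated by Entrez identifier for 25516.

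The comparison used limma 3.58.1 (lmFit and eBayes, two-sided) under R 4.3.3, with 6 residual degrees of freedom and 5.28 from the prior, Benjamini-Hochberg adjustment over all rows and a threshold of 0.05. The fit was tested on simulated data. Nothing says that replicates are separate cultures, so p-values measure the spread between these samples, which may be technical. Array precision is limited by their number. A row was above background in a group where it exceeded the 95th percentile of the antigenomic rows on all 4 arrays. Figures used matplotlib 3.10.9.

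Named genes were the members, called genes of each list (otherwise up to 2 with the smallest p), further laminin chains and the 3 genes most like a called member. Members and lists were chosen with earlier results of these data known. The lists held laminin receptors, basement membrane partners, dystroglycan glycosylation, paralogues, processing and assembly, and cell type markers. Alternatives were quantile normalization, centring on 4 hybridisation controls, filters on low signal, the mean of a gene's rows, eBayes with trend and robust fitting, array weights, a replicate block and leaving out each sample.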

Additional observations from a re-analysis of the deposited data

Results flagged for a closer look

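LAMA4 minus LAMC1 in the samples titled 23 Pa CSS held 1 sample far from the others. Replicate 1 lay at −3.54, against −2.80, −2.68 and −2.75 in replicates 2 to 4, and this gap was 0.854 of the group's range, above Dixon's 95% critical value. In that sample LAMA4 had the lowest (13.04) and LAMC1 the highest signal (16.58) of its group. Replicates 2 to 4 still lay below every sample titled no CSS. Of 22 groups of 4 values tested in this way 1 was so far apart, and chance gives about 5%.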

How the results depend on the processing

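LAMA4 kept its direction under all 16 alternatives and its call under the 8 that kept all samples (−1.38 to −1.07, limma adjusted p 0.00684 to 0.0487). Leaving out each sample gave −1.21 to −0.93, with 1 fit of 8 past the threshold, so the number of laminin chains that fell was 0 to 1. LAMC1 turned to −0.0311 under quantile normalization, −0.28 after centring on the hybridisation controls and −0.00016 with array weights. With a sample left out LAMC1 ranged from −0.0685 to 0.148, LAMB1 from −0.168 to 0.0985 and LAMA2 from −0.183 to 0.00995, so their signs are not settled. The replicate block (LAMA4 −1.07, adjusted p = 0.0487) changed, among the chains and the 5 lists of laminin-related genes, only the call of MMP14. Same-numbered samples did not deviate together (correlations −0.08 to −0.02), and 0 of 4 samples titled 23 Pa CSS correlated best with their own number. Receptors that rose numbered 2 (ITGA3 and CD151) among rows above antigenomic background or above negative controls, and 0 to 1 with a sample left out. The filter on negative controls was chosen after seeing the data. Processing and assembly genes that rose numbered 2 (MMP14 and BMP1) under both filters and quantile normalization, 0 with centring or the block, and 0 to 1 with a sample left out. BMP1 exceeded antigenomic background on 4 arrays titled 23 Pa CSS and 0 titled no CSS, and negative controls on 4 and 3. It thus entered both filtered fits only through the group where it was higher, so its call there adds no support. Basement membrane partners that fell numbered 1 (COL4A5) with centring and 0 to 1 with a sample left out. The causes were not tested. LAMA1, LAMA2 and LAMB2 are limited by signal under background and had no value under either filter. Over all 135750 rows, calls numbered 373 higher and 8208 lower with centring, 302 and 1027 with the block and 789 and 1938 as deposited. With quantile normalization of the same rows they numbered 1126 and 1448. Among only 14140 rows above antigenomic background they numbered 2005 and 2168, so a far larger share of rows was called there.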
